A study of Mus musculus with 6 samples.

Results

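The genes described here are the 34 members of the pathway that breaks down valine and the other branched-chain amino acids, leucine and isoleucine, taken by gene symbol from the 55414 Ensembl gene identifiers of the deposited table. All 34 were found in the table, and 31 reached a value of 1 in 3 or more libraries and were tested. The RNA came from TM4, a line of mouse testis cells that stands in for Sertoli cells, which nurse the germ cells of the testis. There were 6 libraries in 2 groups of 3, labelled control and VC. The labels disagree on what VC cells received: the series title names vitamin C, whereas each VC sample lists valine as its agent and the design text speaks of valine. The group is therefore called VC. No dose or exposure time is stated, nor whether replicates were separate cultures, so the p-values below measure the spread between these libraries, which may be technical. If the agent was valine, the comparison asks whether its own breakdown pathway was altered at the mRNA level.

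Breakdown of the branched-chain amino acids runs in mitochondria for the most part. An aminotransferase first moves the amino group to 2-oxoglutarate, and a dehydrogenase complex then removes the carboxyl group and makes a branched acyl-CoA in an irreversible step. That complex is shut off by a kinase and switched on by a phosphatase. After it the valine, leucine and isoleucine routes part: valine and isoleucine feed succinyl-CoA by way of propionyl-CoA, and leucine gives acetyl-CoA and acetoacetate. The pathway is best known in muscle, fat and liver.

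None of the 31 measured members passed limma's threshold of an adjusted p of 0.05 over all 13972 genes tested, where 0.687% of all genes passed in either direction and 0.429% passed as higher in VC. At an unadjusted limma p under 0.05 there were 2 members, Slc25a44 and Bckdha, while 17.2% of all genes lay under that level. Slc25a44, the mitochondrial carrier for branched-chain amino acids, was at 39.3 ± 2.87 in control and 48.7 ± 0.612 in VC (mean value ± SD, n = 3 per group). Bckdha, the alpha subunit of the decarboxylase in the dehydrogenase complex, was at 7.14 ± 0.418 and 9.17 ± 0.872. Each of the other 29 members had a fitted difference of at most 0.1211 log2 units either way. Values are on a transcripts-per-million-like scale, in which reads are divided by the gene's exon length and each library carries 1 scaling factor set by the authors. A comparison of levels between genes rests on the exon length used.

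Facts of the libraries that touch these results are few. Recovered depth was 20408914 to 22316446 reads per library, and control replicate 3 stood apart, with a chi-square per degree of freedom of 9.59 to 17.3 against any other library where pairs without it gave 2.78 to 7.31. Of the Sertoli markers, Gata4 was at 19.2 ± 0.631 in control, Sox9 at 3.01 ± 0.239 and Amh at 0.865 to 1.054, while Wt1 and Fshr were listed at 0 in every library and Cldn11 reached 0.135 in 1 library, so only some of the defining markers were present. Limma called 60 genes higher and 36 lower in VC over the whole table, and 182 higher and 35 lower when libraries were scaled to equal totals. In bulk RNA, fewer cells of a type and less RNA per cell cannot be told apart.

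**Figure D1:**
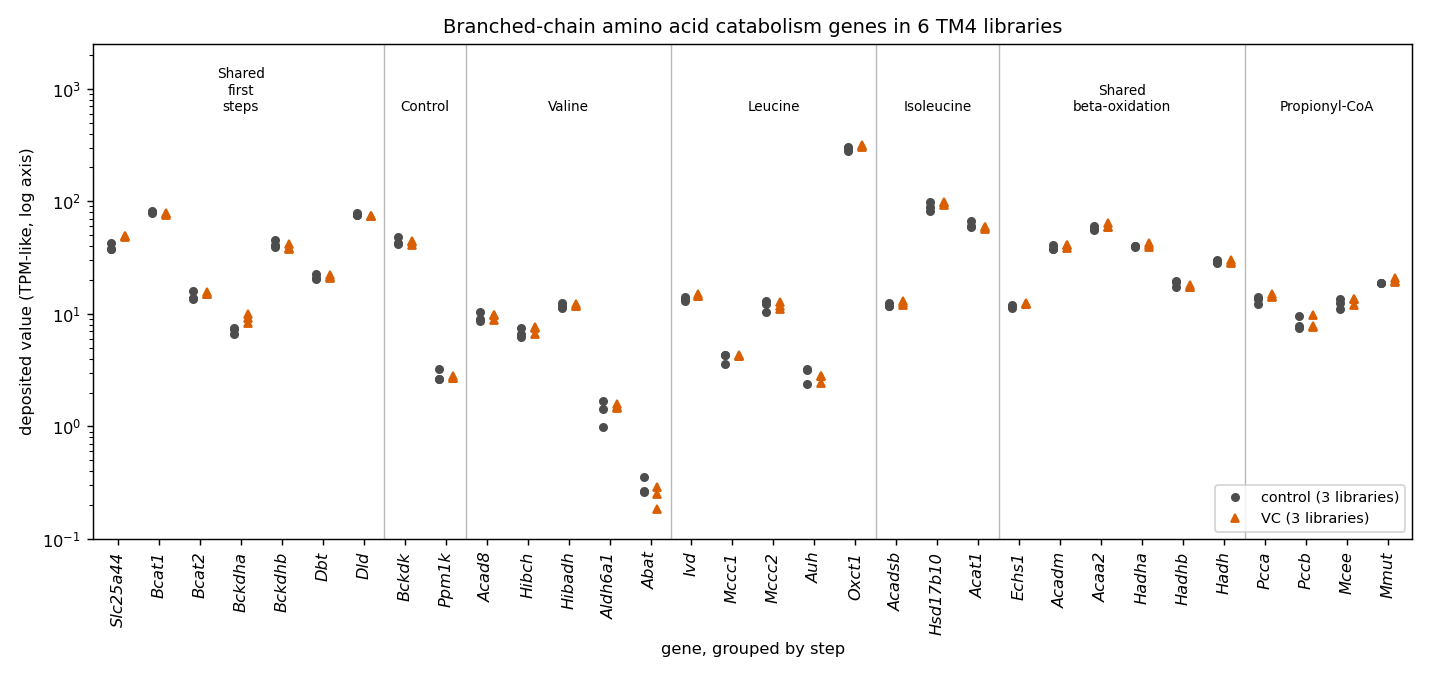
Deposited value (log axis) of each member in the 3 control libraries (grey circles) and the 3 VC libraries (orange triangles), grouped by step; Klf15 and Ehhadh, which had values of 0, are left out. Oxct1 stands highest at about 300.9 and Abat lowest at 0.268, and the symbols of both groups lie close together for most genes. Those of Slc25a44 and Bckdha lie apart by group. Those of the low genes Abat and Aldh6a1 are spread but overlap between the groups.

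Every branch had members with reads in TM4 cells, but at uneven levels, with a mean over the 6 libraries from 0.0285 for Ehhadh to 300.9 for Oxct1 among members with any reads. Oxct1, which activates acetoacetate for use as fuel, made up 25.4% to 27.7% of the summed deposited value of the 34 members. Next came Hsd17b10, a dehydrogenase of isoleucine breakdown, at 92.9, Bcat1 at 78.9, Dld at 75.8 and Acat1 at 60.4. Of the 32 neighbouring pairs in the order of levels, 20 had ranges over the 6 libraries that overlapped, such as Hsd17b10 with Bcat1 and Bcat1 with Dld. Such an overlap does not show whether the order held within each library. Bcat1 stood above Dld in all 6 libraries on the deposited scale. Hsd17b10 stood below Bcat1 in control replicate 1, at 81.6 against 82.0. Oxct1 did not overlap Hsd17b10, nor Dld Acat1.

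This order depends on the exon length used. The deposited values divide by all exons of a gene model joined together, and for 11 of the 34 members that length was more than 2 times the length of the principal protein-coding transcript in GENCODE M21. Values per principal transcript put all reads of the gene over that shorter length. Reads were not counted per transcript, so those from exons outside it are included, and library totals were not rescaled. Per principal transcript, Bcat1 went from 78.9 to 287.8 and stood next to Oxct1 at 315.8. On that length Oxct1 made up 16.25% to 18.1% of the members' sum and Bcat1 15.25% to 16.8%. Echs1, the hydratase shared by the valine and isoleucine routes, went from 12.0 to 63.9, and Hibadh, a dehydrogenase of the valine route, from 11.9 to 66.6. The ratio of group means is not touched by this length, which is the same in all libraries, but a difference on the log2(value + 1) scale is for low values. For Aldh6a1 that difference was 0.1003 with a pseudocount of 1, 0.1712 with 0.1 and 0.0353 with 5.

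The shared opening steps hold the members with the largest differences. Slc25a44 was at 37.5, 42.6 and 37.8 in control replicates 1 to 3 and at 48.0, 49.1 and 49.0 in VC replicates 1 to 3, on 1038 to 1412 recovered reads per library. All VC values lay above all control values. The difference was 0.31 on the log2(value + 1) scale (SE 0.056, 95% interval 0.175 to 0.438, limma adjusted p = 0.0685), a ratio of means of 1.24. It passed the adjusted threshold under 3 alternatives. These were a stricter filter (limma adjusted p = 0.0466), libraries scaled to equal totals (0.0468) and limma-voom on recovered reads (0.0107). Over the whole table they called 183 of 10281, 217 of 13972 and 551 of 13772 genes, against 96 of 13972 in the fit as reported. For Slc25a44, over all 15 alternatives limma's adjusted p ran from 0.0107 to 0.244 and the log2 difference from 0.27 to 0.38. Among all genes tested, 5.43% had a higher log2 difference than Slc25a44.

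Some markers of contractile cells moved in the same libraries. Of the 9 myoid and smooth muscle genes, 6 were measured and 3 (Acta2, Myl9 and Actg2) were called lower. Cnn1 was lower without a call, at 15.8 ± 1.21 in control and 10.4 ± 1.36 in VC. Tagln and Smtn overlapped between the groups, and Smtn went the other way, at 54.4 ± 0.923 and 57.0 ± 2.51. Myh11, Des and Lmod1 stayed below the filter. The 9 genes summed to 1084 to 1184 in control and 719.8 to 737.7 in VC, most of it Acta2, Myl9 and Actg2. The 3 calls were lost in 5 (Acta2), 7 (Myl9) and 8 (Actg2) of 15 alternatives. Each was lost with the replicate block and without control replicate 2 or any 1 VC library. The log2 difference stayed between -0.71 and -0.59 for Acta2. The 13 mitochondrially encoded mRNAs, which can follow RNA quality, summed to 99590 to 101600 in control and 89870 to 95920 in VC, with none called. The part of either in the difference of Slc25a44 was not tested. Of the markers of other testis cells, 2 of 11 germ cell genes, 1 of 7 Leydig cell genes, 2 of 8 macrophage genes and 3 of 7 endothelial genes were measured and none was called. Of 22 Sertoli genes, 9 were measured, none was called and 7 were listed at 0 throughout. Summed values in control and in VC were 2.06 to 3.44 and 3.48 to 4.17 for germ cell genes, 2.34 to 3.31 and 2.74 to 3.53 for Leydig cell genes, 55.7 to 65.9 and 61.1 to 71.1 for macrophage genes, and 41.5 to 45.6 and 44.8 to 50.1 for endothelial genes. Most of the macrophage sum was Cd14, at 49.7 to 61.8 in control and 55.8 to 67.0 in VC. Most of the endothelial sum was Ecscr, at 38.0 to 42.0 in control and 41.2 to 46.0 in VC. The germ cell genes Ddx4, Stra8, Zbtb16, Kit and Tnp1, the Leydig cell genes Hsd3b1, Hsd17b3 and Lhcgr and the macrophage genes Adgre1, C1qa and C1qb were listed at 0 throughout.

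**Figure D2:**
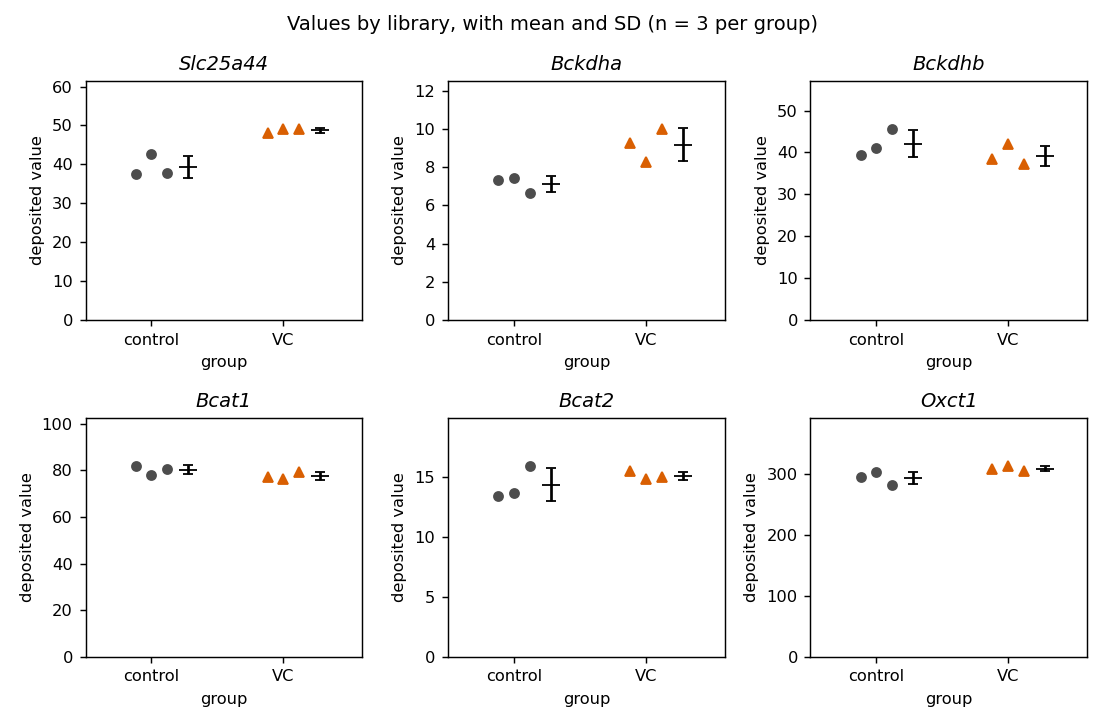
Deposited value of 6 members in each library, with the mean and SD (bars) of the 3 libraries per group; each axis starts at 0. Only Slc25a44, Bckdha and Oxct1 have VC values that all lie above the control values, and for Oxct1 the gap is between 302.5 and 304.4.

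Bcat1 and Bcat2 encode the cytosolic and the mitochondrial branched-chain aminotransferase, which carry out the reversible opening step. Bcat1 was at 82.0, 78.2 and 80.7 in control and at 76.9, 76.2 and 79.5 in VC. Bcat2 was at 13.5, 13.7 and 16.0 in control and at 15.5, 14.9 and 15.0 in VC. Both groups overlapped for either gene. The log2 difference was -0.05 for Bcat1 (95% interval -0.135 to 0.035, limma adjusted p = 0.515), which became 0.0215 with equal totals, and 0.07 for Bcat2 (-0.099 to 0.245, adjusted p = 0.644). Bcat1 thus stood at 5.61 ± 0.527 times the value of Bcat2 in control and 5.12 ± 0.166 times in VC (ratio within a library, n = 3). The ratios of the groups overlapped, with a two-sided exact permutation p = 0.3 over libraries. Per principal transcript it was 9.3 ± 0.874 in control and 8.48 ± 0.276 in VC.

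The dehydrogenase complex is built from a decarboxylase of alpha and beta subunits (Bckdha and Bckdhb), a transacylase core (Dbt) and the lipoamide dehydrogenase Dld, which the complex shares with its sister complexes for pyruvate and 2-oxoglutarate. Bckdha was at 7.34, 7.42 and 6.66 in control and at 9.24, 8.27 and 10.01 in VC, on 105 to 112 and 121 to 153 reads. All VC values lay above all control values, with a log2 difference of 0.32 (SE 0.085, 95% interval 0.117 to 0.521, limma adjusted p = 0.140). Over the 15 alternatives the adjusted p ran from 0.101 to 0.370 and the log2 difference from 0.22 to 0.38.

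Bckdhb, the beta subunit, showed no such separation. It was at 39.5, 41.1 and 45.6 in control and at 38.3, 42.0 and 37.4 in VC, groups that overlapped, with a log2 difference of -0.10 (95% interval -0.260 to 0.064, adjusted p = 0.504). The value of Bckdha was 0.171 ± 0.0217 of that of Bckdhb in control and 0.235 ± 0.0358 in VC, and the 3 VC ratios of 0.241, 0.197 and 0.268 lay above the control ratios of 0.186, 0.180 and 0.146. The two-sided exact permutation test gave p = 0.1, the smallest that 3 libraries against 3 allow, and 0.6 after Benjamini-Hochberg adjustment over the 6 pairs tested. Of the 1899 exonic bases of Bckdha, 1171 also lie in exons of B3gnt8 on the opposite strand in GENCODE M21, and the labels do not say whether strand was kept in counting. B3gnt8, a glycosyltransferase, was at 0.544 ± 0.159 in control and 0.638 ± 0.0205 in VC, on 22 to 39 reads. The level of Bckdha, and its low ratio to Bckdhb, are therefore uncertain.

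Bckdha and Bckdhb encode subunits of 1 enzyme, and their values differed on either length, though the level of Bckdha is uncertain. The 250 bases before the most upstream RefSeq start site of each (build GRCm38.p6) are shown, 5′ to 3′ on the gene's strand. Whether TM4 cells use these starts was not tested, nor was any part of the sequences in the levels. Bckdha lies at chr7:25658762-25659011 on the minus strand and Bckdhb at chr9:83924887-83925136 on the plus strand. Capitals mark matches on either strand to 5 motifs: the GC box GGGCGG, the CCAAT box CCAAT, the E-box CACGTG, the ETS core CGGAAG and the ERR half-site AAGGTCA.
Bckdha: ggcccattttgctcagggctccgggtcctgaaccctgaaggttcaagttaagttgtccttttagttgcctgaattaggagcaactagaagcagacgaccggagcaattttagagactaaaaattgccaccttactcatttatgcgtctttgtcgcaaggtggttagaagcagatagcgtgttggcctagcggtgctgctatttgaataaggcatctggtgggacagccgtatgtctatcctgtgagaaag
Bckdhb: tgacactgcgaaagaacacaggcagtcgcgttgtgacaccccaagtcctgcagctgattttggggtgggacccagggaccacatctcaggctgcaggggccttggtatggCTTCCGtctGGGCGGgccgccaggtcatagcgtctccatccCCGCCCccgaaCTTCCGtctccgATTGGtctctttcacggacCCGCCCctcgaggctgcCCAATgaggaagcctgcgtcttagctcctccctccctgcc
The Bckdha window, with a GC content of 47.6%, held no match to the 5 motifs. The Bckdhb window, at 63.2% GC, held 3 GC boxes, 2 CCAAT boxes and 2 ETS cores. No 2 of the 5 motifs overlapped there. Over 32851 RefSeq windows of this length, 32.7% held a GC box, 33.8% a CCAAT box, 6.02% an E-box, 13.6% an ETS core and 4.08% an ERR half-site. For the 28 members matched among these windows, only the most upstream start of each was used. Of these, 16 (57.1%) held a GC box, 17 (60.7%) a CCAAT box, 2 (7.14%) an E-box, 6 (21.4%) an ETS core and 1 (3.57%) an ERR half-site. The 32851 windows were not reduced to 1 start per gene, so the shares of these unlike sets cannot be compared directly. Abat, Acaa2, Acat1, Dbt, Mmut and Slc25a44 were not matched.

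Dbt was at 20.5 to 22.6 in control and 20.8 to 22.2 in VC, a log2 difference of 0.0045 (95% interval -0.125 to 0.134) that became -0.0232 after quantile normalization. Dld was at 76.2, 75.7 and 79.4 in control and at 74.6, 74.0 and 74.8 in VC. The Dld groups did not overlap, but the log2 difference was only -0.05 (95% interval -0.130 to 0.031, limma adjusted p = 0.495) and became 0.0219 with equal totals. Thus of the 4 genes of the complex, the values of 1 were higher in VC, those of 1 slightly lower on the deposited scale, and those of Bckdhb and Dbt overlapped.

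Neither measured regulator of the complex was called. Bckdk, the kinase that inactivates it, was at 42.5, 41.7 and 47.7 in control and at 43.4, 40.9 and 44.3 in VC. Ppm1k, the phosphatase that reactivates it, was at 3.26, 2.63 and 2.66 and at 2.71, 2.78 and 2.70, on 126 to 152 reads over the 6 libraries. The kinase therefore stood at 15.6 ± 2.45 times the phosphatase in control and 15.7 ± 0.886 times in VC, with a two-sided exact permutation p = 1.0. The 95% interval of the log2 difference was -0.181 to 0.112 for Bckdk and -0.307 to 0.224 for Ppm1k, and the sign of both turned positive with equal totals (0.0364 and 0.0116). Klf15, a transcription factor that controls genes of this pathway in muscle and liver, was listed at 0 in all 6 libraries, at a depth where 3 reads would be worth a value of 0.130 to 0.140.

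**Figure D3:**
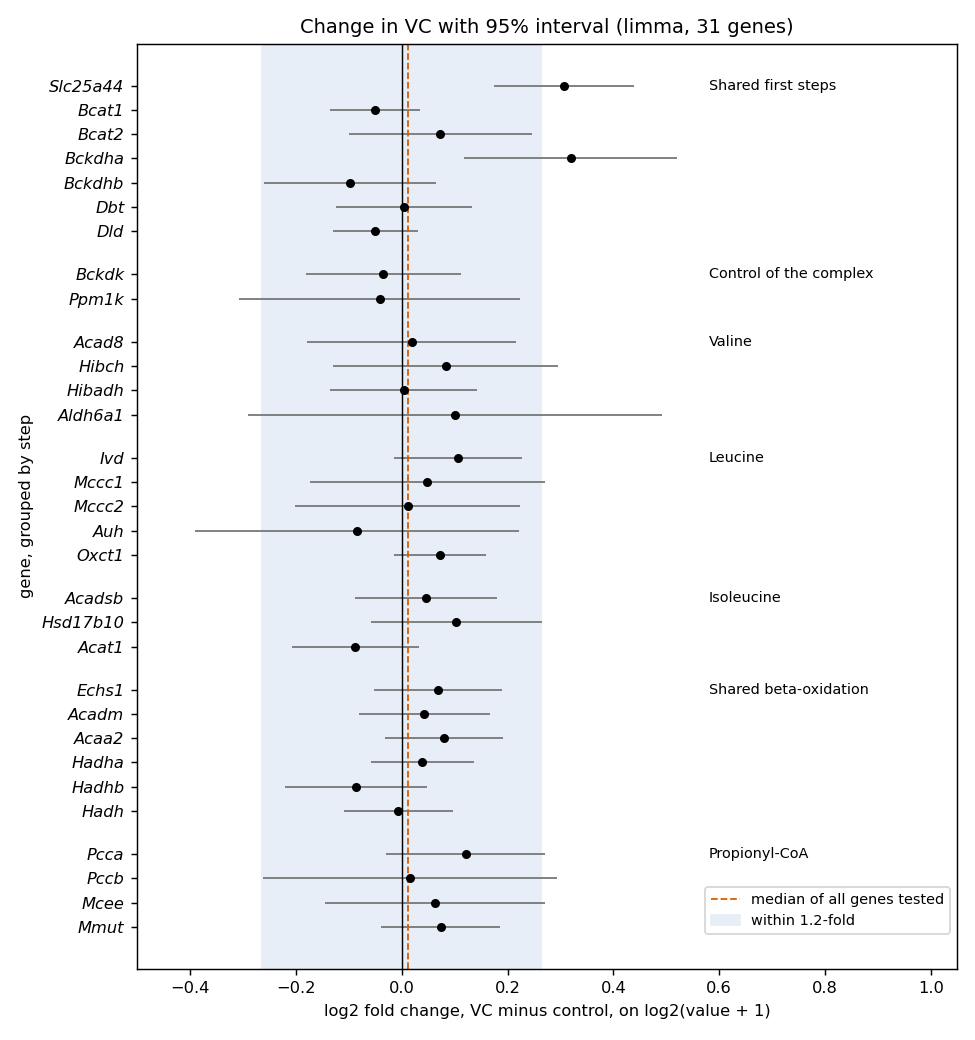
Log2 difference between VC and control for the 31 measured members, with limma's 95% interval, by step; the shaded band spans 1.2-fold either way and the dashed line is the median of all genes, 0.012. The intervals of Slc25a44 and Bckdha alone lie wholly above 0, and 20 of 31 lie inside the band.

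Of the valine branch, 4 of 5 members were measured, none was called, and the median log2 difference was 0.05. This median ran from -0.0255 (without control replicate 2) to 0.1148 (without control replicate 3) when 1 library was left out, and was 0.1143 with equal totals and 0.0053 after quantile normalization, so its sign is not settled. Acad8, which oxidises isobutyryl-CoA, was at 8.62 to 10.4 in control and 8.83 to 9.80 in VC. Hibch, the hydrolase that frees hydroxyisobutyrate from CoA, was at 6.25 to 7.42 and 6.58 to 7.71, and Hibadh, which oxidises that acid, at 11.3 to 12.6 and 11.8 to 12.2. The groups overlapped for each of these genes. Aldh6a1, the methylmalonate semialdehyde dehydrogenase that ends the branch, was low at 0.979 to 1.67 in control and 1.46 to 1.59 in VC, on 45 to 80 reads over the 6 libraries. Its 95% interval, -0.291 to 0.492, was the widest of the measured members, so a change of moderate size in this gene was not excluded. Abat, an aminotransferase that acts on a side product of valine, stayed below the filter at 0.26 to 0.358 and 0.184 to 0.289. In the fit as reported, the intervals of Acad8 (-0.179 to 0.217) and Hibadh (-0.135 to 0.142) lay within 1.2-fold either way on the log2(value + 1) scale. Their differences of 0.0188 and 0.0036 changed sign after quantile normalization, to -0.0229 and -0.0267.

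All 5 members of the leucine branch were measured and none was called, with a median log2 difference of 0.05. The median was -0.0191 without control replicate 1 and 0.0811 without control replicate 2, the ends of its range over libraries left out, 0.107 with equal totals and 0.0163 after quantile normalization. Oxct1 was at 295.4, 302.5 and 282.2 in control and at 307.5, 313.6 and 304.4 in VC. Its groups did not overlap, with a log2 difference of 0.07 (95% interval -0.014 to 0.159, limma adjusted p = 0.359). Ivd, the isovaleryl-CoA dehydrogenase, was at 13.6, 14.0 and 13.0 in control and at 14.5, 14.5 and 15.0 in VC, again without overlap (log2 difference 0.11, 95% interval -0.014 to 0.228, adjusted p = 0.340). The biotin-dependent carboxylase of the branch, made of Mccc1 and Mccc2, showed no such separation. Mccc1 was at 3.61 to 4.31 and 4.18 to 4.30, and Mccc2 at 10.5 to 12.9 and 11.1 to 12.8. Mccc1 stood at 0.344 ± 0.0105 of Mccc2 in control and 0.356 ± 0.0249 in VC (two-sided exact permutation p = 0.6). Per principal transcript the order of this pair turned, to 1.16 ± 0.0356 in control and 1.205 ± 0.0842 in VC. The difference of Mccc2, 0.0115, changed sign after quantile normalization, to -0.0243. Auh, the hydratase of the branch, was at 2.39 to 3.23 and 2.44 to 2.83, with a 95% interval of -0.390 to 0.222.

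In the isoleucine branch 3 of 3 members were measured and none was called, with a median log2 difference of 0.05. It ran from 0.0216 (without VC replicate 3) to 0.071 (without VC replicate 2) with 1 library left out, and was 0.1135 with equal totals and 0.0159 after quantile normalization. Acadsb, which oxidises the branched acyl-CoA, was at 11.7 to 12.6 in control and 12.0 to 12.9 in VC. Hsd17b10 was at 81.6, 89.3 and 97.9 in control and at 99.3, 92.4 and 96.6 in VC, with a wide control spread and a 95% interval of -0.058 to 0.265. Acat1, the mitochondrial thiolase that ends the branch, was at 59.7, 60.9 and 66.4 in control and at 59.5, 59.6 and 56.5 in VC. The VC values of Acat1 lay below the control values by a narrow gap between 59.6 and 59.7, and the log2 difference was -0.09 (95% interval -0.207 to 0.032, limma adjusted p = 0.422).

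Of the 7 enzymes shared with fatty acid beta-oxidation, 6 were measured and none was called. In the fit as reported, the intervals of all 6 lay within 1.2-fold either way. Their median log2 difference was 0.0405, and 0.1112 with equal totals. Echs1 was at 11.8, 11.4 and 12.0 in control and at 12.3, 12.1 and 12.5 in VC, without overlap and with a log2 difference of 0.07 (95% interval -0.052 to 0.189). The medium-chain dehydrogenase Acadm was at 37.5 to 41.2 and 38.2 to 41.0, the thiolase Acaa2 at 55.6 to 59.9 and 59.2 to 63.9, and the hydroxyacyl-CoA dehydrogenase Hadh at 28.3 to 30.1 and 28.4 to 29.9. Hadh differed by -0.0061, which became 0.0639 with equal totals. Ehhadh, the peroxisomal bifunctional enzyme, had at most 0.131 in any library and was not tested.

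Hadha and Hadhb encode the alpha and beta subunits of the mitochondrial trifunctional protein. Hadha was at 39.6 to 40.0 in control and 39.6 to 42.7 in VC, and Hadhb at 17.4 to 19.6 and 17.2 to 18.0. The ratio of Hadha to Hadhb was 2.13 ± 0.144 in control and 2.33 ± 0.125 in VC (two-sided exact permutation p = 0.3). Per principal transcript it was 1.44 ± 0.0971 in control and 1.575 ± 0.0844 in VC. The value of Hadhb is uncertain, because a processed pseudogene, Gm13910, matches its principal transcript over 1428 bases at 99.79% identity and took 382 to 387 reads in control and 391 to 434 in VC. With the reads of Hadhb and Gm13910 summed and put on the deposited scaling, the log2 difference was -0.04 (two-sided exact permutation p = 0.5), against -0.09 for Hadhb alone. A second such pseudogene, Gm9108, matched over 1426 bases at 97.6% and reached 1.59. Apart from genes that overlap a member on the genome, the other matches of at least 200 bases at 95% identity were those of Ppm1k with Zmynd8, over 212 bases, and with Gldc, over 200 bases, so part of the low Ppm1k value is uncertain.

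Propionyl-CoA, the common product of valine and isoleucine, is carboxylated by Pcca and Pccb, inverted by the epimerase Mcee and rearranged to succinyl-CoA by the cobalamin-dependent mutase Mmut. All 4 were measured, none was called, and the median log2 difference was 0.07. It ran from 0.0561 (without VC replicate 1) to 0.1059 (without VC replicate 3) with 1 library left out, and was 0.136 with equal totals and 0.0377 after quantile normalization. Mmut was at 18.9, 18.9 and 18.8 in control and at 20.9, 19.6 and 19.3 in VC, without overlap (log2 difference 0.07, 95% interval -0.039 to 0.186, limma adjusted p = 0.471). Pcca was at 14.2, 13.4 and 12.3 in control and at 15.0, 14.1 and 14.5 in VC, which overlapped (0.12, 95% interval -0.030 to 0.272). Pccb was at 7.54 to 9.56 and 7.70 to 9.73, with a difference of 0.016 that became -0.0405 after quantile normalization, and Mcee at 11.1 to 13.7 and 12.0 to 13.5 on 88 to 106 reads. The ratio of Pcca to Pccb was 1.62 ± 0.289 in control and 1.75 ± 0.232 in VC (two-sided exact permutation p = 0.6), and 2.73 ± 0.486 and 2.94 ± 0.390 per principal transcript.

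**Figure D4:**
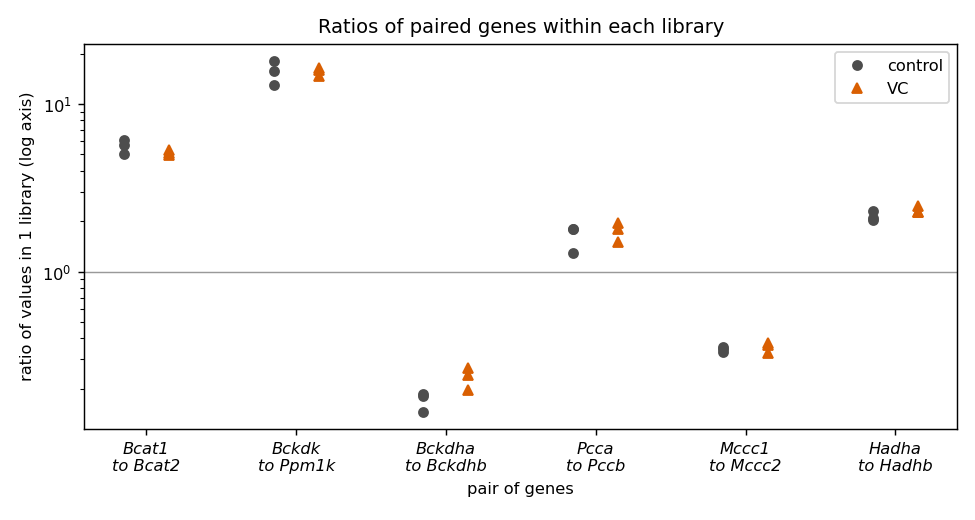
Ratio of the deposited values (per joined exon length) of 2 members in the same library (log axis) for 6 pairs, control as grey circles and VC as orange triangles; the line marks a ratio of 1. Only the ratio of Bckdha to Bckdhb has VC values, 0.197 to 0.268, that all lie above the control values, 0.146 to 0.186.

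Read across the pathway, the members are set beside all genes tested. Their median log2 difference was 0.042 against 0.012 for all genes tested, and 22 of 31 (71.0%) were above 0 against 53.7% of all genes. These counts moved with the scaling: with libraries at equal totals the median was 0.109 (all genes 0.078) and 27 of 31 were above 0 (all genes 72.2%), and after quantile normalization it was 0.0163 (all genes 0.0007) and 17 of 31 (all genes 50.3%). Without control replicate 2 the number above 0 was also 17. The groups did not overlap for 8 members, 25.8% of those measured, where 25.6% of all genes had groups that did not overlap, so this share is at the background. In 6 of the 8 (Slc25a44, Bckdha, Ivd, Oxct1, Echs1 and Mmut) the VC values were above the control values, 19.4% of measured members beside 13.9% of all genes. In 2 (Dld and Acat1) they were below, 6.45% beside 11.6% of all genes. With equal totals the groups did not overlap for 41.9% of measured members, against 30.4% of all genes in either direction. All 13 such members were higher in VC. Of the 13972 genes tested, 3599 were then wholly higher in VC and 643 wholly lower.

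In the fit as reported, on the deposited scaling, the data bound the size of most differences. For 20 of the 31 measured members (64.5%) the whole 95% interval lay within 1.2-fold either way on the log2(value + 1) scale, against 43.3% of all genes tested. Such intervals were not counted under the other scalings, where the differences moved. That of Ivd, for example, was 0.107 in the fit as reported and 0.1745 (SE 0.064) with equal totals. The 11 members with wider intervals were Slc25a44, Bckdha, Ppm1k, Hibch, Aldh6a1, Mccc1, Auh, Hsd17b10, Pcca, Pccb and Mcee. The summed value of the 34 members was 1081 to 1110 in control and 1122 to 1131 in VC, and Oxct1 held the largest share of it. The valine branch alone summed to 29.7 ± 2.53 and 30.4 ± 0.295.

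**Figure D5:**
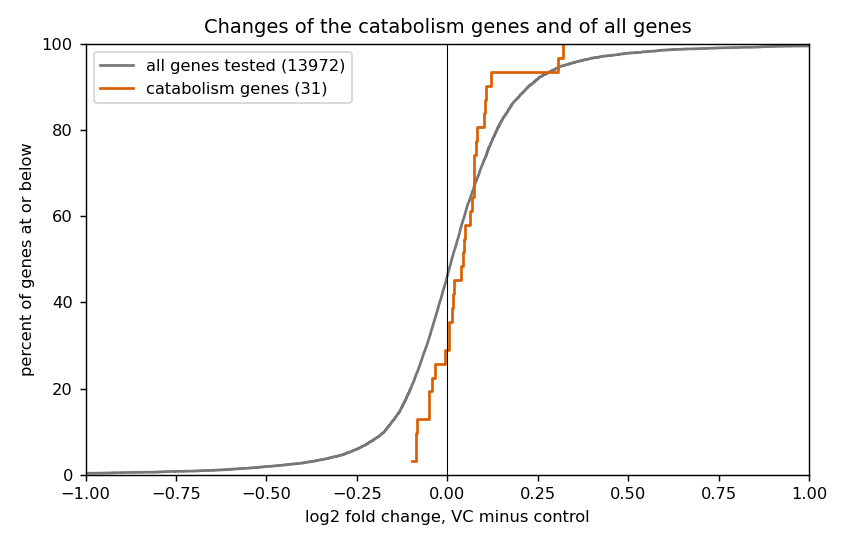
Cumulative share of genes (percent) by log2 difference between VC and control, for the 31 measured members (orange) and all 13972 genes tested (grey). The members' curve runs from -0.10 to 0.32, and genes beyond 1 log2 unit are outside the plot; it crosses 50% at 0.042 against 0.012.

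Among genes linked to the pathway, 1 of 88 measured (1.14%) was called, beside 0.687% of all genes. Acat2, the cytosolic thiolase that also feeds cholesterol synthesis, was at 161.3, 160.7 and 173.0 in control and at 215.8, 212.7 and 216.7 in VC, without overlap. It rose from 165.0 ± 6.89 to 215.1 ± 2.11 (log2 difference 0.38, SE 0.038, limma adjusted p = 0.0189), while its mitochondrial relative Acat1 did not pass. The call of Acat2 held in 8 of 15 alternatives and was lost in 7: with no trend, with the replicate block and without any 1 library other than control replicate 3. Over the 15, limma's adjusted p ran from 0.000531 to 0.117 and the log2 difference from 0.36 to 0.45. It was the only call among 12 measured other enzymes of branched-chain and ketone metabolism. Of 11 transporters of large neutral amino acids only 4 were measured and none was called. Slc7a5, the light chain of the main importer of leucine and valine, was at 187.2 ± 4.23 in control and 170.7 ± 3.68 in VC (log2 difference -0.13, adjusted p = 0.130), and its VC values lay below its control values.

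The remaining lists had no call. In 20 leucine-sensing and mTORC1 genes the smallest limma adjusted p was that of Wdr59, a subunit of the GATOR complex, at 11.5 ± 0.252 and 13.0 ± 0.461 (0.202). In 21 genes of cofactor supply and electron transfer it was that of Mmadhc, which directs cobalamin to the mutase, at 92.6 ± 1.56 and 81.4 ± 3.85 (0.108). In 12 measured genes of the sister dehydrogenase complexes it was that of Ogdh, the 2-oxoglutarate dehydrogenase, at 90.2 ± 1.98 and 102.0 ± 1.43 (0.0733). In 12 measured genes of fatty acid oxidation it was that of Cpt1a, the gatekeeper of fatty acid entry into mitochondria, at 23.4 ± 1.28 and 29.2 ± 0.859 (0.0603). In 7 measured regulators it was that of the nuclear receptor Ppard, at 23.9 ± 0.182 and 27.1 ± 0.370 (0.103).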

How the data were processed

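TruSeq libraries were made from Trizol-extracted RNA, per the labels' protocols, and reads were aligned with HISAT2 to GRCm39, per the submitters' processing notes; no counter is named there. Values deposited by the authors are treated as signal, a transcripts-per-million-like value times 1 factor per library (totals 966031 to 1058206), and the table's name points to TMM scaling by the authors. GENCODE M21 (GRCm38), another build, gave symbols (52081 of 55414 identifiers), exon lengths and overlaps. Multiplied by exon length, 98.78% to 98.94% of the 15825 to 16303 values per library that could be judged (at most 1000 reads and a rounding error of at most 0.05 read) fell within 0.1 read of a whole number, and reads were recovered so; read-based limits cover counting error only. Genes reaching 1 in 3 or more libraries were kept. Log2(value + 1) was fitted in limma 3.58.1 under R 4.3.3 (moderated variance with trend; two-sided; threshold 0.05 after Benjamini-Hochberg adjustment over 13972 genes); the fit was tested on simulated data. Ratios of paired members were compared by exact permutation over libraries with a pseudocount of 1. Near copies were sought by alignment of principal transcripts to GENCODE M21 transcripts. The members, lists and tests were chosen with earlier results of these data known. Every member is named, and of each linked list the called genes or else the gene with the smallest adjusted p. Alternatives changed the pseudocount, filter, scaling, trend, model, replicate block and libraries. Motifs, transcript lengths and near copies were added after the data were seen.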

Additional observations from a re-analysis of the deposited data

How the results depend on the processing

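No member was called in the fit as reported or in 12 of 15 alternatives, including each that left out 1 library. In 3 (stricter filter, equal totals and limma-voom on recovered reads) 1 member, Slc25a44, was called higher. The median log2 difference of measured members was 0.1094 with equal totals and 0.0163 after quantile normalization, and 0.0243 to 0.047 without 1 library. With equal totals the sign turned for Bcat1 (0.0215), Dld (0.0219), Bckdk (0.0364), Ppm1k (0.0116) and Hadh (0.0639). After quantile normalization it turned for Dbt (-0.0232), Acad8 (-0.0229), Hibadh (-0.0267), Mccc2 (-0.0243) and Pccb (-0.0405). Leaving out 1 library turned the sign of some members, with ranges of -0.0233 to 0.0462 for Dbt, -0.0712 to 0.0246 for Bckdk, -0.0815 to 0.0333 for Ppm1k, -0.0324 to 0.0885 for Acad8, -0.0304 to 0.0417 for Hibadh, -0.0206 to 0.1943 for Aldh6a1, -0.0191 to 0.0833 for Mccc1, -0.0679 to 0.0704 for Mccc2, -0.0273 to 0.0166 for Hadh, -0.0803 to 0.1091 for Pccb and -0.0096 to 0.1308 for Mcee. The cause was not tested, and 18 of 31 members kept their sign in all 15 alternatives. The log2 ratio of Bckdk to Ppm1k differed by -0.0106 with a pseudocount of 5. Without 1 library the difference of that ratio ran from -0.0901 to 0.1006, of Pcca to Pccb from -0.0377 to 0.2016, of Mccc1 to Mccc2 from -0.0029 to 0.0892 and of Bckdha to Bckdhb from 0.3151 to 0.5309. Same-numbered libraries did not deviate together (r = -0.019, -0.011 and 0.005 across genes); the fit with the replicate number as a block called 0 members and 0 genes of the whole table against 96, and put Slc25a44 at a limma adjusted p of 0.159, and sign flips by replicate gave p = 0.25 for Bckdha to Bckdhb, the smallest possible. Limma over the whole table called 30 of 27484 genes without a filter and 183 of 10281 with the stricter filter. It called 217 of 13972 with equal totals and 551 of 13772 with limma-voom. Of 13972 genes it called 6 without a trend, 82 without control replicate 3 and 0 to 1 without any other library. The measured members with the fewest reads were Aldh6a1, Mcee, Ppm1k and Bckdha, with at most 80, 106, 152 and 153 in any library, and those with the largest standard errors were Aldh6a1 (0.165), Auh (0.129), Pccb (0.117) and Ppm1k (0.112).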
